A study of Saccharomyces cerevisiae with 6 samples.

Results

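Budding yeast cells starved of nitrogen for 1 h were compared directly with cells starved of potassium for 1 h, in 2 libraries of each, 4 of the 6 libraries of the series. The libraries were chosen by their labels, and the 2 libraries of untreated cells were left out of the fit and serve as context. All cells were Saccharomyces cerevisiae BY4741, a laboratory haploid of mating type a that lacks HIS3, LEU2, MET17 and URA3, taken in exponential growth in synthetic complete medium. Each group has 1 library of batch 1 and 1 of batch 2, and the labels say no more about separate cultures, so the p-values speak only of how far these libraries spread, which may be technical. RNA was extracted from whole cultures and made into libraries of polyadenylated RNA with a kit that keeps the strand.

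Yeast senses the quality of its nitrogen supply through the GATA factors. Gln3 and Gat1 activate, and Dal80 and Gzf3 repress, the genes for taking up and breaking down poor nitrogen sources, which are silent while good sources last, a control known as nitrogen catabolite repression. Lack of amino acids raises the activator Gcn4, which acts on genes of amino acid synthesis. The TOR kinase complex ties nitrogen supply to the making of ribosomes, and its loss of activity switches off genes of ribosomal proteins and ribosome assembly and starts autophagy. Potassium is the main cation of the cytoplasm; the importers Trk1 and Trk2 take it up, and the phosphatases Ppz1 and Ppz2 with their inhibitors Hal3 and Vhs3 regulate that uptake.

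The deposited tables count reads per annotated feature, and the most abundant features are mostly dubious open reading frames that lie on the strand opposite a well-known gene. A feature is called paired here when 50% or more of it, with a minimum of 100 bases, lies opposite exactly 1 protein-coding gene, and a gene's name below refers to reads of the feature opposite it. Of 7127 features, 403 were paired, opposite 388 genes, and 2274 held at least 10 reads in at least 2 of the 4 libraries and were tested, among them 358 paired features and 1802 features counted under a gene's own identifier. Among 359 pairs of a gene and its opposite feature with enough reads, the feature held more reads per base than the gene in 332 in each nitrogen library, while the potassium libraries gave 343 and 342. Values under own identifiers are therefore given apart and do not stand for messenger RNA levels of those genes. Most genes have no paired feature, so the groups below are the part of each pathway that these tables show.

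The 2 starvations differed in where the reads lay. The nitrogen libraries had totals of 357835 and 374244 reads, those of potassium starvation 359353 and 402341, with 425923 and 418009 in the untreated ones. Paired features took 29.1% and 26.7% of reads in nitrogen starvation and 51.6% and 42.6% in potassium starvation, against 62.5% and 58.3% in untreated cells. The nitrogen libraries were the lowest of the 3 groups in this class, with no overlap. Own identifiers took 48.7% and 44.5% of reads in nitrogen and 19.4% and 10.6% in potassium starvation. Features opposite ribosomal RNA genes took 19.4% and 26.3% in nitrogen and 26.4% and 44.7% in potassium starvation; potassium library 2 stood highest of all 6 (22.2% and 28.2% untreated). The potassium libraries also differed most from each other, with a chi-square over its degrees of freedom of 28.8, where the nitrogen libraries had 8.16. The 95% Wilson intervals of these shares are at most 0.2 percentage points from the share and cover counting error only.

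**Figure D1:**
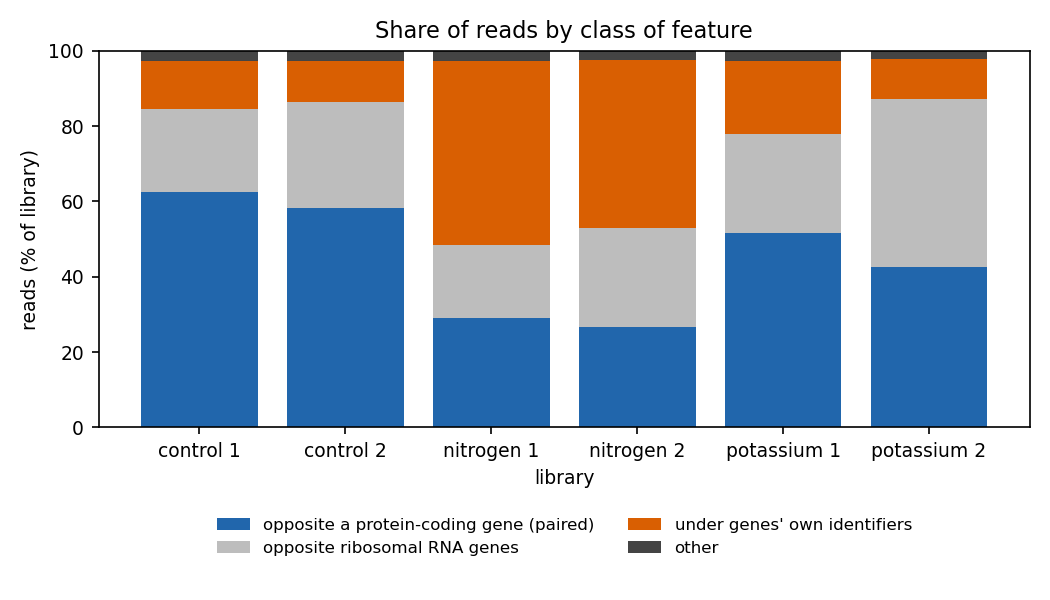
Share of reads (%, y axis) by class of feature in each of the 6 libraries (x axis); each bar is 1 library. In the 2 nitrogen libraries own identifiers took 48.7% and 44.5% of reads and paired features 29.1% and 26.7%.

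Because these shares differ, the scaling sets the zero of the comparison. With TMM scaling over all features the median log2 fold change (nitrogen over potassium, here and throughout) was 0.20 for all features, -1.02 for paired features and 0.58 for own identifiers. With TMM computed over the paired features alone (the paired scaling) values moved up by about 1.10, and the median of paired features became 0.10. Folds and log2 values below are with TMM unless another scaling is named. Differences in favour of potassium are smaller with the paired scaling. With TMM, edgeR called 570 features higher in nitrogen, a percentage of 25.1 of those tested, and 450 higher in potassium, 19.8%; with the paired scaling it called 1160 (51%) and 160 (7.04%). In CPM the nitrogen libraries lay above the potassium libraries for 985 features (43.3%) and below for 755 (33.2%), or for 1558 (68.5%) and 284 (12.5%) with the paired scaling. A direction is given below only for features called with both scalings, 570 higher in nitrogen (25.1%) and 160 higher in potassium (7.04%). All had the same direction in both batches, which adds no support, as the calls rest on the same libraries. RNA was measured as shares of whole cultures, so fewer cells of a kind and less RNA per cell cannot be told apart.

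Among the 358 paired features 18 were higher in nitrogen starvation and 81 higher in potassium starvation with both scalings, 5.03% and 22.6%, beside 25.1% and 7.04% of all features tested. With TMM alone 201 paired features were higher in potassium; 120 of these lost the call with the paired scaling and none turned to nitrogen. The count of 81 was 50 without nitrogen library 2 and 61 without nitrogen library 1. Of 68 named paired features called, 23 lost the call in at least 1 fit without a library. Of the 45 losses 36 were with the paired scaling alone, where TMM still gave an adjusted p of at most 0.013, and 9 with TMM alone. With library size alone the features of CAR2, CCT2, CCT8, CPR6, DSE3, ECM1, GLN4, IDH2, POL30, RPC19, RPC53, RRP9, RRP15, SAS10, SEC61, SUI3 and VHS3 were not called, 18 of the 68, with log2 from -1.62 (CAR2) to -0.35 (IDH2). With TPM these and GCY1, GPD1, GRE2, HYP2, NOP4, REI1, RRP14 and SSZ1 were not called, 26 in all. In all 99 called features the libraries of one starvation lay above both of the other in CPM, with either scaling. The features were called on these same libraries, so this adds no support to the calls. By size, DAL80 and DAL7, of nitrogen use, led the genes higher in nitrogen, and PRM6, CTR1 and RGI1 those higher in potassium. By number, the lists with most features higher in potassium were ribosomal proteins with 12, ribosome assembly with 10 and chaperones with 6. The counts per list below stand beside 22.6% of all paired features higher in potassium and 5.03% higher in nitrogen. Many lists hold few tested features.

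**Figure D2:**
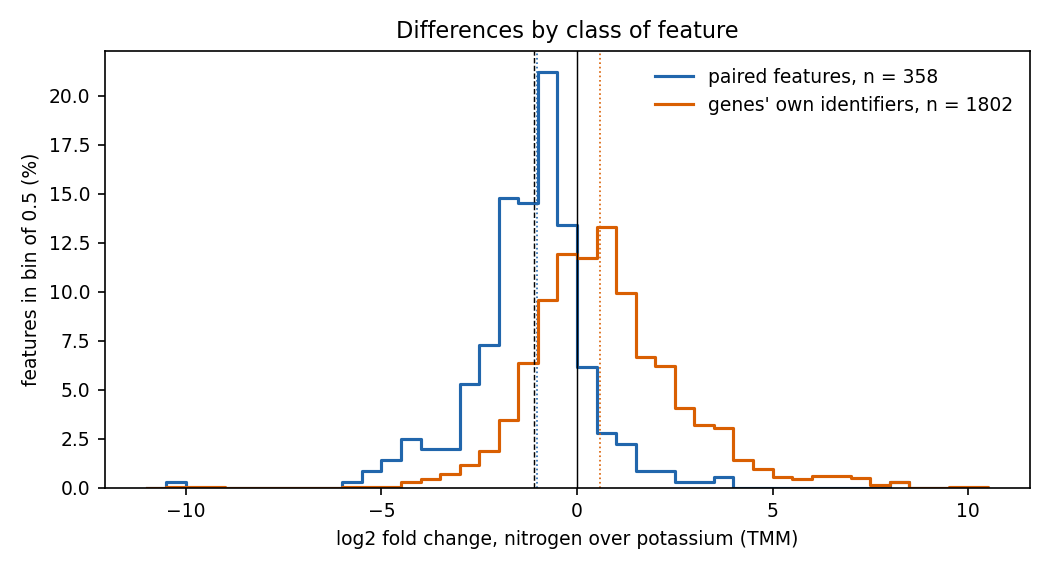
Distribution of the fitted log2 fold change (x axis, TMM) for 358 paired features and 1802 own identifiers, as the percentage of each class per bin of 0.5 (y axis). Dotted lines mark the medians of -1.02 and 0.58, the solid line 0 and the dashed line the zero of the paired scaling; fitted values of features with 0 reads in 1 group depend on the prior count.

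The promoters of 9 paired genes are shown first: 7 chosen because they hold a match to the motif of a regulator of their group, and 2 with the largest differences in favour of potassium, which hold none. Each is the reference sequence (RefSeq, R64) from 250 bases before the start codon to 50 bases into the coding sequence, 5′ to 3′ on the gene's strand, and capitals mark matches to 1 motif on either strand. The 3 genes of nitrogen catabolite repression that were higher in nitrogen are shown with GATAAG, the motif of GATA factors. DAL80 (chrXI:506648-506947, plus strand) has 1 match, DAL7 (chrIX:414630-414929, minus strand) has 4, the last of them inside the coding sequence, and GAT1 (chrVI:95716-96015, plus strand) has 4, of which 3 overlap.
DAL80: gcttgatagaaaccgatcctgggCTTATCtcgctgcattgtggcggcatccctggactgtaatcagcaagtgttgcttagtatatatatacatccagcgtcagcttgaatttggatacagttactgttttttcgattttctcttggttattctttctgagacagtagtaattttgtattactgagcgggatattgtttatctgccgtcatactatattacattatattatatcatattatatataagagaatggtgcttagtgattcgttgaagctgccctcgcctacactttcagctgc
DAL7: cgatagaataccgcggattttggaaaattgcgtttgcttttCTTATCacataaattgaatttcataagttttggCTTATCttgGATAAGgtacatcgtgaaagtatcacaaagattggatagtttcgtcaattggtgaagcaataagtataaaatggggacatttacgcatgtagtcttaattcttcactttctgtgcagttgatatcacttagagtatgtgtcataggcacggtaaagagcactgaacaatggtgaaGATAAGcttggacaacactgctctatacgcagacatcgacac
GAT1: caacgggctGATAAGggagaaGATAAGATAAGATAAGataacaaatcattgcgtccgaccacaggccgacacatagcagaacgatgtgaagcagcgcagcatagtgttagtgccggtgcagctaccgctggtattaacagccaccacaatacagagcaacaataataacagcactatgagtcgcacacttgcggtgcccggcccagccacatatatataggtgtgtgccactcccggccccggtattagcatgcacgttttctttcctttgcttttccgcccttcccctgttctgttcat
ARG5,6 (chrV:295160-295459, plus strand) is shown with its 2 matches to TGACTC, the core of the Gcn4 motif, and MET28 (chrIX:384070-384369, minus strand) with its match to CACGTG, the motif of Cbf1, a regulator of sulfur genes.
ARG5,6: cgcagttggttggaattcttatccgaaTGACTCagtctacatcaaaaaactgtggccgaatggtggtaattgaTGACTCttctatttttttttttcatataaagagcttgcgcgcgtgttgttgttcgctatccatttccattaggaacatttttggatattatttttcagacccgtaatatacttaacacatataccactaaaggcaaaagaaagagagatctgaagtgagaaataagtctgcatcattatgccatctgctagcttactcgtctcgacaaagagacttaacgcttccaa
MET28: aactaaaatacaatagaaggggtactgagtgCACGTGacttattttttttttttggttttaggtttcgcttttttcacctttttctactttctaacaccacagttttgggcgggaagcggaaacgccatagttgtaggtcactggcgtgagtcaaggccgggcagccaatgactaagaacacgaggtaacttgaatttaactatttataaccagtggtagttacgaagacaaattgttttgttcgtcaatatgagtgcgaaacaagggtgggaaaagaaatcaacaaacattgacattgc
Of the genes higher in potassium, RGI1 (chrV:291816-292115, plus strand) is shown with its 2 matches to CCCCT, the stress response element, and NOP56 (chrXII:545847-546146, plus strand) with its match to GATGAG, the core of the PAC motif of ribosome assembly genes.
RGI1: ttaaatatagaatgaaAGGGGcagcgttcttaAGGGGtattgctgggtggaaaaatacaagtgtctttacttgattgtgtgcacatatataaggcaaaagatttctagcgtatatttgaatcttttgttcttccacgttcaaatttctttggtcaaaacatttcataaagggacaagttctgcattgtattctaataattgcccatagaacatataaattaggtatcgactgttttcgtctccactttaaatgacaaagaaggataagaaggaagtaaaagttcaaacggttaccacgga
NOP56: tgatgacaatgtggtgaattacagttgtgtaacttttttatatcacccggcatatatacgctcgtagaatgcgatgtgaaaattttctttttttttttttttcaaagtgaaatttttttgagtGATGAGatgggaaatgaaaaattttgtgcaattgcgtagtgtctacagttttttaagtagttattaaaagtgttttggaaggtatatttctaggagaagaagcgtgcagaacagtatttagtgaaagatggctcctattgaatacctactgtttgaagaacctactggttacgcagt
PRM6 (chrXIII:181026-181325, minus strand) and CTR1 (chrXVI:785958-786257, plus strand) hold none of the 5 motifs searched and have no capitals.
PRM6: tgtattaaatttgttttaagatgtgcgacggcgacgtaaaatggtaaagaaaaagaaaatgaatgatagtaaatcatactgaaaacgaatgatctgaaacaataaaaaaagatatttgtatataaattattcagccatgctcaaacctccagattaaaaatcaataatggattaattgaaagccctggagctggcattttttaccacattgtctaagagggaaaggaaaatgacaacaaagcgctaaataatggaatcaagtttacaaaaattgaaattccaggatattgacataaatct
CTR1: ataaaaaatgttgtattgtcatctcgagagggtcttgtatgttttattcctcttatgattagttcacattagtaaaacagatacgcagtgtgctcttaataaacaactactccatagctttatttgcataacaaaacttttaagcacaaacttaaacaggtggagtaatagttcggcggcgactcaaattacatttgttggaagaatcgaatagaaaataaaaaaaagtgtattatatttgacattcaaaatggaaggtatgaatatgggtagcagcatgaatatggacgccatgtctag
Other leading genes also lacked the motif sought in them: GPH1 and GCY1 had no CCCCT and MET2 no CACGTG.

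Over windows of the same length, GATAAG was found in 9 of the 18 genes higher in nitrogen (50%), in 10 of the 80 genes opposite the 81 features higher in potassium (12.5%) and in 881 of 6001 protein-coding genes (14.7%). TGACTC was found in 4 of 18 (22.2%), 5 of 80 (6.25%) and 7.98% of all. GATGAG was found in 2 of 18 (11.1%), 27 of 80 (33.8%) and 20.4% of all. The share with the GATA motif was thus high in the nitrogen genes and that with PAC high in the potassium genes, while CCCCT, in 5 of 18 (27.8%), 19 of 80 (23.8%) and 21.6%, was at a like share in each. CACGTG was found in 1 of 18 (5.56%), 2 of 80 (2.5%) and 2.92% of all. A match is a run of letters and is not shown to be a bound site.

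**Figure D3:**
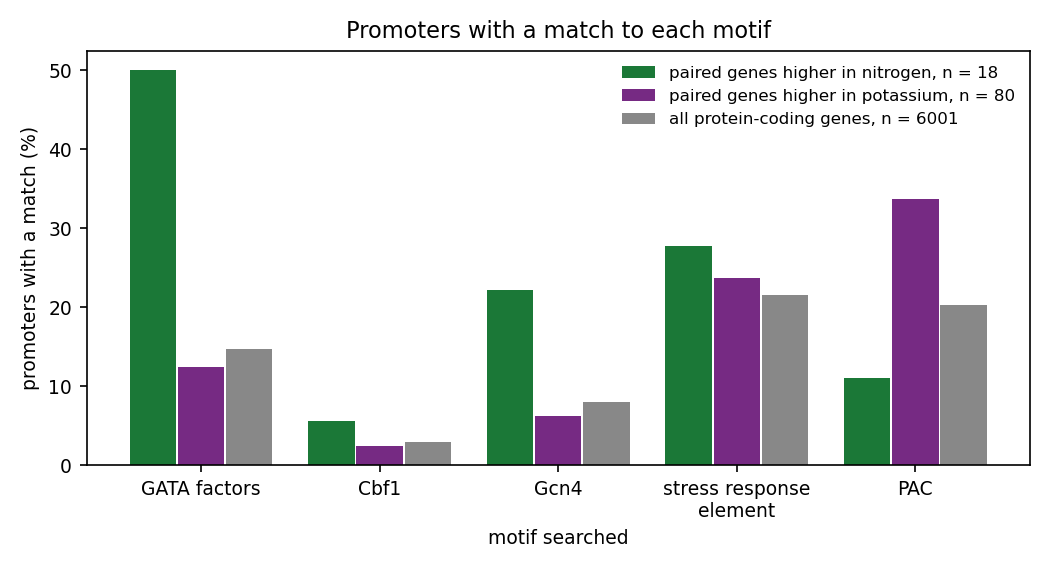
Percentage of promoter windows with at least 1 match on either strand (y axis) for 5 motifs (x axis) in 18 paired genes higher in nitrogen, 80 higher in potassium and 6001 protein-coding genes. The GATA motif stands at 50%, 12.5% and 14.7%, and the PAC motif at 11.1%, 33.8% and 20.4%.

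Nitrogen catabolite repression gave the largest difference in favour of nitrogen among paired features. Reads for DAL80, the repressing GATA factor, numbered 4826 and 4646 in nitrogen, 4 and 7 in potassium starvation, against 4 and 2 in untreated cells. The potassium libraries stood at the untreated level and the nitrogen libraries far above. The fold was 321 (log2 8.33, SE 0.55, adjusted p = 2.6e-07; log2 9.44 with the paired scaling). These reads lay under YKR033C, on the minus strand at chrXI:506879-507304, 407 bases of it opposite DAL80. This feature passed the filter through the nitrogen libraries alone. DAL7, malate synthase of allantoin use, held 4417 and 3988 reads in nitrogen, 125 and 115 in potassium and 40 and 32 in untreated libraries. Both starvations lay above untreated cells, nitrogen 13.1-fold above potassium (log2 3.71, SE 0.39, adjusted p = 8.0e-06). GAT1, the activator, held 1874 and 2337 reads in nitrogen, 181 and 179 in potassium and 134 and 96 untreated. Its difference was 4.34-fold (log2 2.12, SE 0.34, adjusted p = 0.00025). CAR2, ornithine transaminase of arginine breakdown, went the other way, with 7 and 26 reads in nitrogen, 35 and 72 in potassium and 10 and 15 untreated (log2 -3.20, SE 0.65, adjusted p = 0.0014). Of the 4 tested genes of the list 3 were thus higher in nitrogen and 1 in potassium, with a median log2 of 2.91 beside -1.02 for all paired features. CAR2 passed with TMM but missed the threshold with the paired scaling without nitrogen library 1 or potassium library 2 (adjusted p = 0.11 and 0.25), and it was not called with no filter on low counts (adjusted p = 0.089).

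Of 5 tested genes of amino acid synthesis 2 were higher in nitrogen and none in potassium. ARG5,6, which encodes a pair of enzymes of arginine synthesis, held 3477 and 2119 reads in nitrogen, 177 and 80 in potassium and 112 and 58 in untreated libraries (8.65-fold, log2 3.11, SE 0.38, adjusted p = 2.4e-05). LEU9, an isopropylmalate synthase of leucine synthesis, held 195 and 195 reads in nitrogen, 26 and 18 in potassium and 146 and 117 untreated, a 3.40-fold difference (log2 1.77, adjusted p = 0.00088). Here potassium starvation was the group apart from untreated cells: in a fit of all 6 libraries LEU9 had log2 -0.96 for nitrogen and -2.72 for potassium against untreated cells, 2 values that share the untreated libraries. TRP4, TRP1 and PRO3 had log2 0.76, -0.64 and -0.99, and none was called with both scalings. Both tested sulfur genes were higher in nitrogen. MET28, a regulator of sulfur metabolism, held 5594 and 5470 reads in nitrogen, 662 and 274 in potassium and 89 and 90 untreated, so that both starvations exceeded untreated cells and nitrogen exceeded potassium 4.78-fold (log2 2.26, SE 0.40, adjusted p = 0.00055). MET2, homoserine acetyltransferase of methionine synthesis, held 1625 and 2180 against 432 and 244 reads, with 39 and 70 untreated (log2 1.14, adjusted p = 0.010), and was not called with TMM without nitrogen library 2 (adjusted p = 0.17).

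The other paired genes higher in nitrogen had varied roles. MNC1, next in size after DAL80 and DAL7, held 105 and 348 reads in nitrogen and 11 and 3 in potassium (21 and 10 untreated; log2 3.68), and DIA1 had log2 2.73. YMC1, a mitochondrial carrier, held 1454 and 1315 reads in nitrogen and 119 and 121 in potassium starvation (195 and 148 untreated; log2 2.09). CUP2, the copper-sensing activator of metallothionein genes, held 843 and 1069 against 159 and 105 (119 and 108 untreated; log2 1.48). In both genes the potassium libraries lay near the untreated ones. ISU1, the scaffold of iron-sulfur cluster assembly, had log2 1.03 and ARN2, a siderophore transporter, 1.06, which were 2 of 2 tested genes of the iron regulon; with TMM, ISU1 was not called without either nitrogen library (adjusted p = 0.086 and 0.052), nor ARN2 without nitrogen library 1 (adjusted p = 0.28). HVG1, a putative nucleotide sugar transporter, had log2 1.84, SGE1, a multidrug transporter, 1.42, MNN4, of mannan phosphorylation, 1.01, and SNX41, a sorting nexin, 0.91. The feature YPR100W, itself an annotated gene opposite YPR099C, had log2 1.57, not called with TMM without nitrogen library 1 (adjusted p = 0.054), and which of these overlapping genes its reads belong to cannot be told apart.

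**Figure D4:**
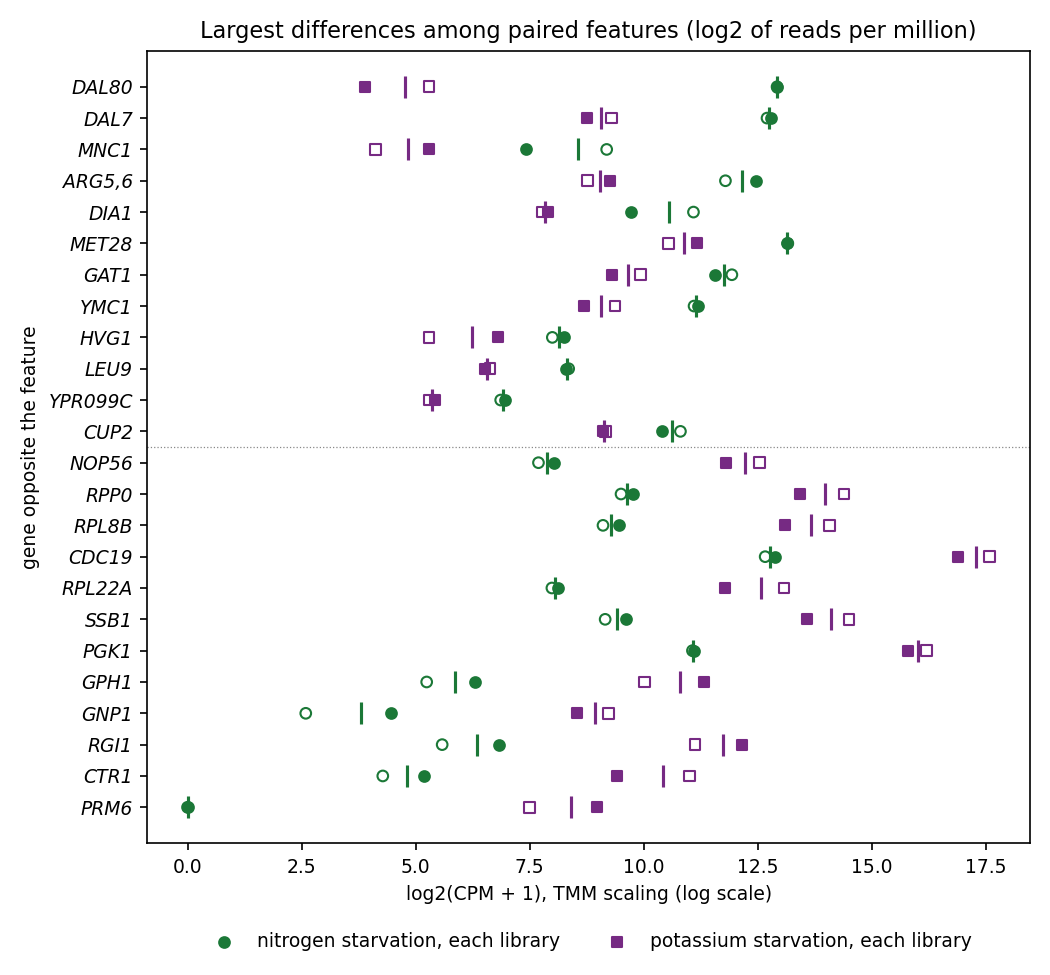
Reads as log2(CPM + 1), where CPM is counts scaled to a common library size, with TMM scaling (x axis, log scale) for the 12 largest differences in each direction among paired genes (y axis); circles are nitrogen and squares potassium libraries (filled for library 1, open for library 2), bars the group means. DAL80 held 4826 and 4646 reads in nitrogen against 4 and 7, and PRM6 0 and 0 against 144 and 33. The groups do not overlap in any of the genes shown, which were chosen by calls on these same libraries.

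Read through paired features, the machinery of ribosome production stood higher in potassium than in nitrogen starvation. Of 14 tested ribosomal protein genes 12 were called with both scalings, with a median log2 of -4.06 over the 14, or -2.90 with the paired scaling, beside -1.02 and 0.10 for all paired features. RPL28, of the large subunit, held 804 and 455 reads in nitrogen, 4786 and 4191 in potassium and 15641 and 12498 in untreated libraries. The potassium libraries lay between the other groups (log2 -4.26, SE 0.53, adjusted p = 3.3e-05). RPP0, of the ribosomal stalk, held 541 and 433 reads in nitrogen, 3151 and 3943 in potassium and 9793 and 9325 untreated, a 20.3-fold difference between the starvations (log2 -4.34). RPL22A, with 173 and 151 against 1015 and 1585 reads (4028 and 4411 untreated), differed 22.8-fold. RPL12A had the largest difference of the list at log2 -5.18. RPS27A and RPL36A, at -1.83 and -1.70, were called with TMM alone. Reads of genes with near-identical copies, such as RPL12A with RPL12B and SSB1 with SSB2, may be shared between copies and are uncertain.

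Of 11 tested ribosome assembly genes 10 were higher in potassium, with log2 from -4.34 to -2.07 over the 11. NOP56, of the box C/D snoRNA particles, held 163 and 123 reads in nitrogen, 1024 and 1090 in potassium and 3707 and 2980 untreated (20.2-fold, log2 -4.34, SE 0.39, adjusted p = 4.0e-06). NSR1, a nucleolar RNA-binding protein, held 203 and 63 against 487 and 730, with 3232 and 3353 untreated (log2 -3.71). Both starvations lay below untreated cells for these genes, and nitrogen lay below potassium. NOP13 had log2 -4.11, NOP4 -3.15, REI1 -2.92, RRP14 -2.69, SAS10 -2.59, ECM1 -2.48, RRP15 -2.24 and RRP9 -2.22, while REX4, an exonuclease-like protein, had -2.07 and was called with TMM alone. NOP56, NSR1 and NOP13 kept their call in all 16 settings tried. With the paired scaling RRP15 was not called without nitrogen library 1 (adjusted p = 0.059), RRP9 without nitrogen library 1 or potassium library 2, ECM1 without either nitrogen library or potassium library 2, and SAS10 without nitrogen library 2 or either potassium library. RPC19, shared by RNA polymerases I and III, and RPC53, of polymerase III, were higher in potassium, 2 of 3 tested, at log2 -1.91 and -2.19. HYP2, translation factor eIF5A, had log2 -2.77 and SUI3, of eIF2, held 613 and 523 against 1057 and 696 reads, which made 2 of 3 translation factors higher in potassium. GLN4, glutaminyl-tRNA synthetase, was 1 of 3 synthetase genes called (log2 -2.01), with ILS1 at -0.96 and MES1 at -0.39, both above 0 with the paired scaling. With the paired scaling RPC53 and GLN4 were not called without nitrogen library 2 or potassium library 2, SUI3 without either nitrogen library, and RPC19 without either nitrogen library or potassium library 2.

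Several cytosolic chaperones were also higher in potassium. SSB1, an Hsp70 bound to ribosomes, held 487 and 340 reads in nitrogen, 3498 and 4265 in potassium and 12572 and 10714 in untreated libraries (26.1-fold, log2 -4.71, SE 0.54, adjusted p = 1.5e-05). With the paired scaling its log2 was -3.54. SSA1, the main cytosolic Hsp70, held 451 and 240 reads in nitrogen and 3149 and 2033 in potassium starvation. Its potassium libraries overlapped, in reads, the untreated ones at 1592 and 2647 reads, and the log2 fold change was -4.29. SSZ1, of the ribosome-bound complex, had log2 -2.75, CPR6, a cyclophilin, -2.45, and the chaperonin subunits CCT8 and CCT2 -2.19 and -2.02, while CCT6 at -0.73 was not called with both scalings. With the paired scaling CCT8 was not called without nitrogen library 1, nor CCT2 without either nitrogen library. In all 6 of 9 tested features were higher in potassium and none in nitrogen, beside 22.6% and 5.03% of all paired features. The 2 features opposite HSF1, the heat shock activator, had log2 -0.58 and -0.53 and were not called.

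Carbon and energy genes gave the largest shift in absolute reads. CDC19, pyruvate kinase, held 4683 and 3877 reads in nitrogen, 35016 and 36106 in potassium and 38715 and 32380 in untreated libraries. The potassium libraries stood among the untreated ones, and nitrogen 22.7-fold lower (log2 -4.50, SE 1.03, adjusted p = 0.0030). PGK1, phosphoglycerate kinase, held 1362 and 1283 reads in nitrogen against 16337 and 13775 in potassium (30.4-fold, log2 -4.92), with 12766 and 11828 untreated. With the paired scaling its log2 was -3.78. GPM1, phosphoglycerate mutase, had log2 -4.23, which made 3 of 3 tested glycolysis genes higher in potassium. Neither CDC19 nor GPM1 was called with TMM once either of the nitrogen libraries was left out (highest adjusted p 0.13 and 0.10), and over the 16 settings tried their log2 fold changes ran from -4.86 to -2.698 and from -4.65 to -2.48.

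GPH1, glycogen phosphorylase, held 48 and 22 reads in nitrogen, 731 and 190 in potassium and 8 and 9 in untreated libraries (31.3-fold, log2 -4.97, SE 0.47, adjusted p = 5.1e-06). The gene RGI1, involved in respiratory energy metabolism, held 70 and 28 reads in nitrogen, 1313 and 410 in potassium and 25 and 17 untreated (42.4-fold, log2 -5.41). With the paired scaling GPH1 and RGI1 had log2 -3.92 and -4.35. For both genes potassium starvation was far above the other groups, although potassium library 1 held over 3 times the reads of library 2. IDH2, isocitrate dehydrogenase, was also higher in potassium (log2 -1.84), with 361 and 362 against 477 and 480 reads, not called with the paired scaling without either nitrogen library or potassium library 2. All 4 tested stress genes were higher in potassium, and REG2 was the only one of them called with TPM. GCY1, a glycerol dehydrogenase, held 155 and 167 against 562 and 309 reads, with 32 and 26 untreated (log2 -2.78), and GPD1, of glycerol synthesis, 163 and 103 against 387 and 289, with 62 and 56 untreated (log2 -2.74). REG2, a phosphatase subunit of glucose repression, had log2 -3.53 and GRE2, a methylglyoxal reductase, -2.82. ARO9, an aromatic aminotransferase, held 64 and 126 against 386 and 317 reads, with 62 and 57 untreated (log2 -3.29, adjusted p = 9.7e-06).

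Transporters and ion homeostasis held the single largest fitted difference in favour of potassium among paired features. PRM6, a potassium transporter, held 0 and 0 reads in nitrogen, 144 and 33 in potassium and 1 and 0 in untreated libraries. Counting each nitrogen library at a floor of 3 reads, its level was at least 69.1-fold higher in potassium starvation, or at least 33.6-fold with the paired scaling (adjusted p = 5.3e-06). The feature that holds these reads is YML047W-A (plus strand, chrXIII:179893-180258), of which 242 bases lie opposite PRM6. It passed the filter through the potassium libraries alone, which lay far apart at 144 and 33 reads. VHS3, the inhibitor of the Ppz phosphatases, has 2 opposite features, and both were higher in potassium: 78 and 51 against 153 and 86 reads (log2 -2.24), and 126 and 113 against 264 and 149 (log2 -2.14). They share 1 gene and are not independent. With the paired scaling neither feature was called without nitrogen library 2, nor YOR055W, the first, without potassium library 1. CMP2, a catalytic subunit of calcineurin, PMR1, the Golgi calcium pump, and NHX1, an endosomal sodium-proton exchanger, had log2 -1.12, -0.66 and 0.70 and were not called with both scalings, so 3 of 6 features of the list were.

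CTR1, the high-affinity copper importer, held 22 and 11 reads in nitrogen, 196 and 375 in potassium and 67 and 62 in untreated libraries. Nitrogen lay below and potassium above untreated cells (49.6-fold between them, log2 -5.63, SE 0.52, adjusted p = 4.6e-06). GNP1, the glutamine permease, held 13 and 3 reads in nitrogen, 107 and 110 in potassium and 207 and 182 untreated (36.1-fold, log2 -5.17). With the paired scaling GNP1 had log2 -4.03. HIP1, the histidine permease, had log2 -0.97 and AVT3, a vacuolar transporter, -0.50, and neither was called with both scalings. CCC2, a copper pump of the Golgi, had log2 -0.55 and -0.05 under its 2 features.

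**Figure D5:**
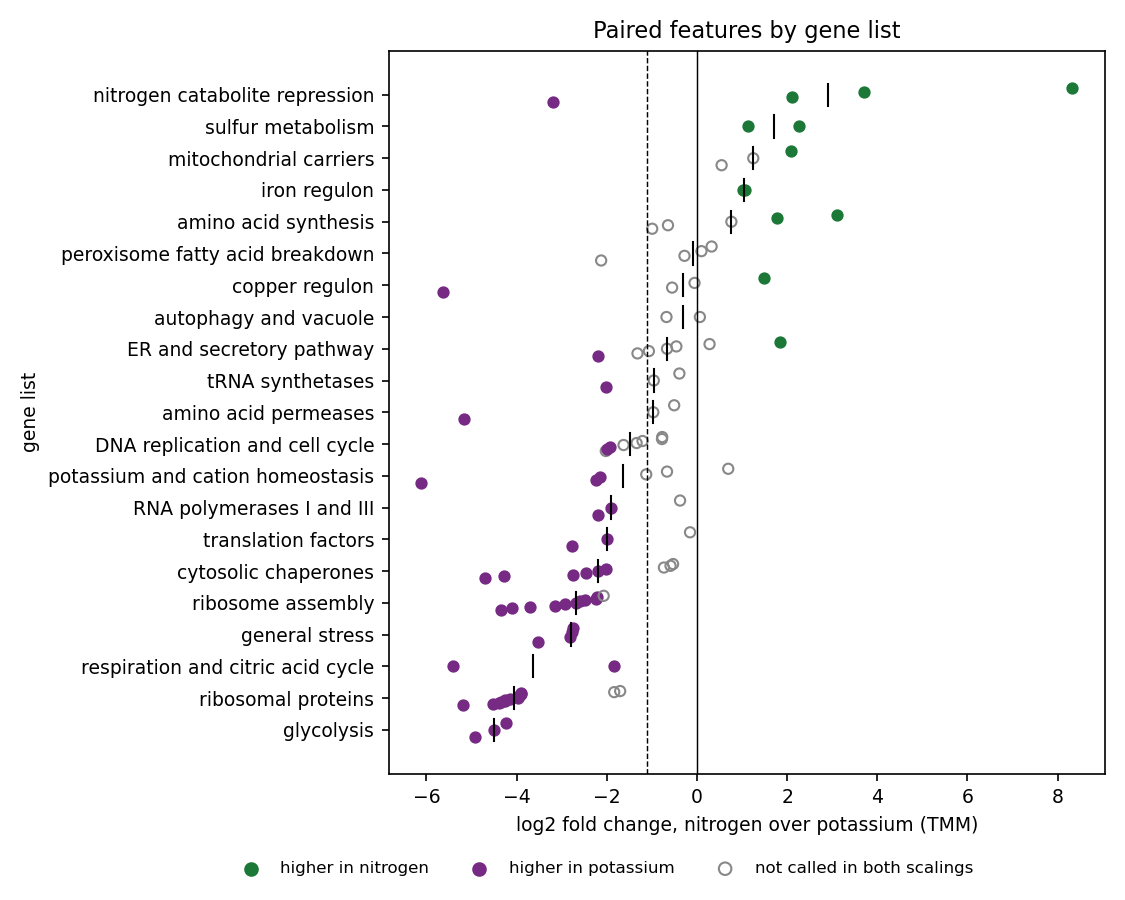
Log2 fold change with TMM (x axis) of each tested paired feature, by gene list (y axis, lists with at least 2). Filled points were called in both scalings, bars are list medians, the dashed line is the zero of the paired scaling, and PRM6 is drawn at its bound; 12 of 14 ribosomal protein genes lie far to the potassium side, and 3 of 4 genes of nitrogen catabolite repression to the nitrogen side.

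Several groups had few or no members called with both scalings. ATG16, of the complex that builds the autophagosome, held 120 and 113 reads in nitrogen, 42 and 41 in potassium and 25 and 29 in untreated libraries. Its log2 fold change was 0.07 with TMM (SE 0.35, adjusted p = 0.90) and 1.20 with the paired scaling (adjusted p = 0.0091), so its direction rests on the scaling. CUE5, a receptor of selective autophagy, had log2 -0.67 or 0.46 (adjusted p = 0.064 and 0.13). Of 105 tested paired features of the lists 21 changed sign between the scalings, none of them called in both: those of AVT3, CCT6, CNE1, CUE5, DIT2, HAC1, HEF3, HIP1, ILS1, MCM3, MES1, PEX14, PMR1, PRO3, RNR2, TFC1 and TRP1 and both features of CCC2 and of HSF1, all of them below 0 with TMM. The peroxisomal genes PEX2, PEX14, TES1 and SPS19 had log2 0.10, -0.28, 0.33 and -2.12, and none of 4 was called with both scalings. ERG27, of sterol synthesis, had 0.10 or 1.20. Of 8 tested genes of DNA replication and the cell cycle 6 were called higher in potassium with TMM. Only POL30, the sliding clamp PCNA, and DSE3 were called with both scalings (log2 -1.92 and -1.99). That is 2 of 8, near the 22.6% of all paired features called higher in potassium. With the paired scaling these 2 were not called without either nitrogen library or potassium library 2. Of 7 genes of the secretory pathway SEC61, the translocon channel, was higher in potassium (log2 -2.19; with the paired scaling not called without nitrogen library 1), and HVG1, above, higher in nitrogen. Of 3 tested mitochondrial carriers YMC1, above, was called with both scalings. GEM1, a mitochondrial GTPase kept in that list, and DIC1 had log2 1.25 and 0.55 with TMM. With the paired scaling both were higher in nitrogen (log2 2.35 and 1.66, adjusted p = 0.0038 and 0.0015). GEM1 missed the threshold with TMM (adjusted p = 0.054) and passed it with the batch as a block (log2 1.19, adjusted p = 0.0446).

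Of the 99 called paired features 28 higher in potassium and 6 higher in nitrogen are on no list. BUR6 and NCB2, the subunits of the transcription regulator NC2, had log2 -2.79 and -2.66. LIA1, which completes the hypusine modification of the HYP2 protein, had log2 -2.93 beside -2.77 for HYP2 itself. GND1, of the pentose phosphate pathway, TNA1, a nicotinic acid importer, and SCS7, a sphingolipid hydroxylase, had -2.87, -2.54 and -2.64. These genes were singled out after their values were seen.

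Under own identifiers the picture differed from that of the paired features. Of 1802 tested, 540 (30.0%) were higher in nitrogen and 65 (3.61%) higher in potassium with both scalings, and 40 held 0 reads in both potassium libraries. The filter shapes these counts: 734 of the 1802 reached 10 reads in both nitrogen libraries and in neither potassium library, among them 372 of the 540, and 35 the other way round, among them 30 of the 65. Within the 359 pairs the own identifier took 12.4% and 11.7% of the pair's reads in nitrogen, 2.22% and 1.43% in potassium and 1.39% and 1.27% in untreated libraries. The nitrogen libraries were apart from the other 4. Of 27 tested own identifiers of ribosome assembly genes 13 were higher in nitrogen and 3 in potassium, the reverse of their paired features. Of 10 tested ones of ribosomal proteins 5 were higher in nitrogen and 0 in potassium. Of the 13, 12 had passed the filter through the nitrogen libraries alone, as had the 5, so the filter favoured that direction. Of 17 tested own identifiers of sulfur genes 6 were higher in potassium, among them SUL1, a sulfate importer (log2 -3.28), and 3 in nitrogen; 4 of the 6 had passed the filter through the potassium libraries alone.

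Among own identifiers with 0 reads in both potassium libraries, DIM1, an rRNA dimethylase, held 265 and 202 reads in nitrogen, at least 28.6-fold higher. CRT10, POG1, MAL12, CAF40 and CRC1 were at least 18.7-, 7.78-, 7.18-, 5.71- and 4.78-fold higher. The most abundant called identifiers, singled out after their values were seen, were PRR2, HPF1 and CSS1. PRR2, a protein kinase gene, held 8551 and 6741 reads in nitrogen, 184 and 59 in potassium and 14 and 15 in untreated libraries. HPF1 and CSS1 were higher in potassium (log2 -2.86 and -2.56), HPF1 with 894 and 727 reads in nitrogen against 2425 and 1993. DGR2, next after PRR2 among those higher in nitrogen, held 2574 and 2077 against 6 and 5. In the other direction SRO9, of translation, held 4 and 5 reads in nitrogen and 162 and 66 in potassium (60.4-fold, log2 -5.92). HSP82, TMN2 and ZTA1 had log2 -5.13, -4.83 and -4.50. Their reads were 1 and 3, 9 and 6, and 3 and 1 in nitrogen, against 22 and 33, 147 and 36, and 28 and 11. CUP1-1 held 0 and 0 reads in nitrogen and 51 and 28 in potassium, at least 33.5-fold higher. ASP3-3 held 0 and 0 against 32 and 60, at least 44.5-fold. Both genes have near-identical copies, and CUP1-1 overlaps an antisense RNA gene, so their reads are uncertain. SRO9, HSP82, TMN2, ZTA1, CUP1-1 and ASP3-3 reached 10 reads in the potassium libraries alone. DGR2 and the identifiers with 0 potassium reads did so in the nitrogen libraries alone. The filter thus favoured the direction of these calls.

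At some loci the strands moved apart. Under the HIP1 own identifier nitrogen held 741 and 276 reads and potassium 8 and 3 (log2 5.15), while its paired feature had 194 and 262 against 157 and 171. SNX41 had 1075 and 1076 against 6 and 2 under its own identifier (log2 6.69) and 461 and 558 against 106 and 97 under its paired feature. MNN4 differed alike on both strands (log2 0.96 and 1.01). The DAL80 and DAL7 identifiers held 16 and 27, and 26 and 21, reads in nitrogen and 0 and 0, and 0 and 1, in potassium starvation, the same direction as their paired features. Of 30 genes of the lists tested on both strands, 10 were called on both, 4 in the same direction (DAL80, DAL7, NOP56 and CDC19) and 6 in opposite directions. MET2 was higher in nitrogen by its paired feature and higher in potassium under its own identifier, with 2 and 8 against 13 and 17 reads (log2 -2.96). GPH1, SSZ1, CCT2, RRP9 and GRE2 were higher in potassium by their paired features and higher in nitrogen under their own identifiers, GPH1 with 141 and 174 against 16 and 17 reads (log2 1.84). Of these own identifiers DAL80, DAL7, CCT2, SSZ1, RRP9, HIP1 and SNX41 reached 10 reads in the nitrogen libraries alone. MET2 and CDC19 did so in the potassium libraries alone. The filter thus favoured the direction of their own calls, and the counts of 4 and 6 are no measure of how the strands relate. HIP1, SNX41 and MNN4 were chosen for this after their values were seen.

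Genes without a paired feature that bear on nitrogen, potassium and autophagy have only own identifiers, which do not stand for their messenger RNA levels. GAP1, the general amino acid permease, held 30 and 34 reads in nitrogen and 6 and 1 in potassium (log2 1.83, SE 0.61, adjusted p = 0.025), a call lost without nitrogen library 2 or potassium library 2 and with DESeq2 (adjusted p = 0.14). PHO84, a phosphate importer, held 72 and 37 against 8 and 6 (log2 1.56, adjusted p = 0.034), a call lost without nitrogen library 1 or potassium library 1 and with DESeq2 (adjusted p = 0.11), and an annotated noncoding RNA overlaps it on the other strand. Both GAP1 and PHO84 reached 10 reads in the nitrogen libraries alone, so the filter favoured that direction. Neither was called by edgeR with no filter on low counts (adjusted p = 0.085 and 0.078). PHO84 was also not called in the edgeR fit of all 6 libraries (adjusted p = 0.059) or when tested against a fold change of 1.5 (adjusted p = 0.070). The identifiers of the ammonium permeases went apart: those of MEP1 and MEP3 were higher in potassium (log2 -2.23 and -2.88), and that of MEP2 had 0.87 (adjusted p = 0.30). ATG14 had log2 1.17 (adjusted p = 0.096) and TRK1 -0.56 (adjusted p = 0.48). ATG1 and ATG9 held too few reads to be tested, and ATG8 held none in any library, although ATG8 is an active gene, so its level could not be read. Of the deleted markers, HIS3 held 6 and 7 reads in nitrogen and 6 and 5 in potassium, and no library held a read under URA3, LEU2 or MET17, but own identifiers of abundant genes were low in reads too, so this is no check of the strain.

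Markers of the mating types gave no check of the label either, since those of a cells have no paired feature. The 7 identifiers of a cells held 31 and 34 reads in nitrogen and 20 and 12 in potassium, and the 4 of alpha cells 198 and 325 against 69 and 50. Of the latter STE3, the a-factor receptor, held 84 and 235 reads in nitrogen and 7 and 1 in potassium (log2 3.98) under its own identifier. STE3 passed the filter through the nitrogen libraries alone, so the filter favoured that direction. The identifiers of MF(ALPHA)2 and SAG1, also tested, were not called. They had log2 -0.32 and -0.73 with TMM, and 0.81 and 0.39 with the paired scaling. The part of other cells in these values was not tested. By position, 188 of 537 own identifiers higher in nitrogen (35%) had a convergent neighbour downstream, against 27 of 63 higher in potassium (42.9%). The share was 48.1% of the 1167 not called with both scalings. It was 43.9% of all 1767 tested ones that are nuclear protein-coding genes, the called ones included.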

How the data were processed

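RNA was sequenced in 6 libraries of BY4741, of which the 2 nitrogen and 2 potassium libraries were compared. The authors' deposited files give estimated counts and TPM per feature for each library, with the columns of salmon per the file headers, and a table of DESeq2-normalised signal (counts divided by 1 size factor per library, per the labels). Build R64, STAR 2.7.3a and DESeq2 come from the submitters' processing notes; which version and which strand mode the quantifier ran with is not given in the sources used here. Multiplying the normalised table back gave whole reads for 100% of values.

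Features were placed on R64 by annotation (6172) or by finding a reading frame of matching length and strand between the neighbouring numbered genes (624). In a check on 5620 annotated genes the search placed 5546 once at the right position and 3 once at a wrong one. Counts were rounded, filtered at 10 reads in 2 libraries and tested with edgeR 4.0.16 (R 4.3.3; quasi-likelihood, TMM, 2 residual degrees of freedom), with Benjamini-Hochberg adjustment over 2274 features and calls below 0.05; the script was checked on simulated data. CPM are reads scaled by the effective library size. Alternatives used DESeq2 1.42.0 and limma 3.58.1 on log2(TPM + 1). Intervals are at 95%.

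Named were the 12 largest paired differences in each direction (called in both scalings, at least 10 CPM, same direction in both batches, whole reads within 0.001), all list members with a paired feature, the 6 largest own identifiers in each direction and a set of fixed genes. The members, the 29 lists and the rules were chosen with earlier results of these data known. The labels' batch number pairs the libraries; deviations of same-batch libraries correlated at 0.08 (Pearson) and 0.07 (Spearman) across features.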

Additional observations from a re-analysis of the deposited data

How the results depend on the processing

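The counts of features higher in nitrogen and in potassium were 1160 and 160 with the paired scaling, 1163 and 85 with library size alone, 1274 and 55 with limma on TPM, and 373 and 178 with no filter on low counts; DESeq2 called 337 higher in nitrogen. The 18 paired features higher in nitrogen became 66 with the paired scaling, 59 with library size alone, 60 with TPM and 10 when at least 80% of the feature had to lie opposite the gene, and the 81 higher in potassium became 42 with library size alone and 27 with TPM. Leaving out each library in turn gave 392 to 566 features higher in nitrogen, 314 to 481 higher in potassium, and 14 to 21 and 50 to 78 paired features, 50 being without nitrogen library 2. With the batch as a replicate block the counts were 589 and 473, and 21 and 83 among paired features; in the fit of 4 libraries the block changed no call of the genes named but that of GEM1, and in the fit of 6 libraries GAP1 was not called with the block (log2 1.86, adjusted p = 0.054). Of 105 paired list features 21 changed sign with the paired scaling; those that changed sign and then passed the threshold in any setting were CCC2 (YDR271C; 1.05 with the paired scaling, 1.69 with TPM), PEX14 (0.85 with the paired scaling, 1.15 with library size, 1.48 with TPM) and MES1 (0.74 with the paired scaling, 1.06 with library size). Of 68 paired features named and called, 35 kept the call in all 16 settings. The cause of these shifts was not tested. At this depth many genes held too few reads to be tested.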
